A study of Mus musculus with 4 samples.

Results

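Ly49 receptors are C-type lectin-like proteins of the surface of mouse natural killer (NK) cells, encoded by the Klra genes, which lie side by side in the NK gene complex of chromosome 6. Inhibitory members carry a tyrosine motif in the cytoplasmic tail that recruits the phosphatase SHP-1, and activating members lack it and signal through the adaptor DAP12 (gene Tyrobp). Most known ligands are MHC class I molecules, and the number and identity of Klra genes differ between inbred mouse strains. These receptors are known from NK cells, some T cells and myeloid cells, and not as products of the exocrine pancreas.

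The 5 rows described here are Klra4, Klra12, Klra18, Klra15 and Klra2, out of 23282 rows of the deposited tables, and they were taken by symbol. The members were chosen by their counts in these same 4 libraries, ERRγ against GFP, so their differences between the viruses are given as a description, without a test. All 5 passed the filter on low counts, Klra2 through a library of each group and the other rows through the ERRγ libraries alone.

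The samples were primary acinar cells from the pancreas of C57BL/6J mice, kept in medium with serum, trypsin inhibitor and 25 ng/ml of human epidermal growth factor. In 2 libraries the cells had received an adenovirus for estrogen-related receptor γ (ERRγ, gene Esrrg), an orphan nuclear receptor of oxidative metabolism. In 2 libraries they had received an adenovirus for green fluorescent protein (GFP). Both viruses were used at a multiplicity of infection of 100, for 36 h. The sources used here give neither the viral promoter, nor the age and number of mice, nor whether libraries 1 and 2 were separate cultures, and a p-value therefore covers only how far these libraries scatter, which may be technical.

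Libraries of transcript ends held 10.48 and 10.65 M counts under ERRγ, and 10.11 and 11.01 M counts under GFP. Esrrg had 1453 and 12994 counts in ERRγ libraries 1 and 2, against 86 and 107 counts in the GFP libraries, higher in both libraries labelled ERRγ but unequal between them. Markers of the labelled cell type were low: the 11 acinar markers summed to 97.0 and 97.1 CPM (counts relative to library size, TMM-scaled) under ERRγ and to 106 and 49.6 CPM under GFP, with no count for Ptf1a, the transcription factor that defines acinar cells. The 5 duct markers summed to 2050 and 2510 CPM under ERRγ and to 2830 and 2860 CPM under GFP. Libraries of a group were not copies of each other, with a chi-square of 22.6 per degree of freedom in the ERRγ pair and 14.3 in the GFP pair.

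Positions and promoter sequences were found for Klra4 and Klra2, the 2 of 5 members with a locus under their symbol in GENCODE M21. Klra4 encodes Ly49D, an activating receptor, and spans chr6:130043731-130067271 on the minus strand of GRCm38, with no other annotated gene across it. Klra2 encodes Ly49B, an inhibitory receptor described on myeloid cells, and spans chr6:131219223-131247362 on the minus strand, 832.3 kb beyond Klra1 and the rest of the family. Klra12 (Ly49L, activating), Klra18 (Ly49R, activating) and Klra15 (Ly49O, inhibitory) are names of Ly49 genes described in other inbred strains. None of these 3 symbols is a gene of GENCODE M21, which annotates the C57BL/6J genome. None is a symbol or synonym in RefSeq's table of GRCm38.p6, so no coordinates are given for them. In all, 13 of the 20 Klra rows had a GENCODE locus of that name. The 20 rows stood next to each other, and 1192 of 1194 steps between matched chromosome 6 rows ran in the order of their start positions. In that order the Klra15 row stood between Klra5 and Klra6, Klra18 between Klra6 and Klra4, and Klra12 between Klra4 and Klra8. Whether their reads came from those intervals was not tested.

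The promoters of Klra4 and Klra2 are shown because the first had counts almost only under ERRγ and the second had counts that overlapped between the viruses, and that of Klra8 (Ly49H, the activating receptor for a mouse cytomegalovirus protein) because it was the most like that of Klra4 among the Klra windows of the RefSeq table (GRCm38.p6) that aligned to it over at least 90% of their length. Each runs 5′ to 3′ on the minus strand from 250 bases before the start site, and capitals mark the 50 bases from the start site on; the windows are chr6:130067222-130067521, chr6:130129849-130130148 and chr6:131247313-131247612.
Klra4: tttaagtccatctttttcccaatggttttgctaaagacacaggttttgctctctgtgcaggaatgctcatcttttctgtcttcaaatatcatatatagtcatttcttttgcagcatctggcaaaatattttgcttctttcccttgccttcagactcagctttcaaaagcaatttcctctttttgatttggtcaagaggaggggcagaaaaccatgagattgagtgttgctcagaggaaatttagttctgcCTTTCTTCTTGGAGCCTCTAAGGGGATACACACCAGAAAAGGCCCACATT
Klra8: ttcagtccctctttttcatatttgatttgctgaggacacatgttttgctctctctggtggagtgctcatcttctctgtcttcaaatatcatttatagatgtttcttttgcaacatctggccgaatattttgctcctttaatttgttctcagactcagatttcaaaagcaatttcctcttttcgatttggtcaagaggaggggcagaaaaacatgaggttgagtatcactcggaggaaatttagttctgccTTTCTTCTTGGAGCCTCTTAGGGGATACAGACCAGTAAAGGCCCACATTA
Klra2: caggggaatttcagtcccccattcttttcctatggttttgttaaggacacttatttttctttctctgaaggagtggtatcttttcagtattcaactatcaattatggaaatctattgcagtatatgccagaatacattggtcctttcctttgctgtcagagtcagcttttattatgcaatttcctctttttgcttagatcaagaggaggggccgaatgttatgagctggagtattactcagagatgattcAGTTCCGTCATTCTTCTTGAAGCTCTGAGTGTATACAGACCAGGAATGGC

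Klra promoters that aligned over at least 90% of the window were compared with that of Klra4. That of Klra8 was identical to it at 259 of 299 aligned positions (86.6%), and that of Klra17 at 245 of 291 (84.2%). Klra7 followed at 230 of 288 (79.9%), Klra2 at 222 of 289 (76.8%) and Klra5 at 213 of 278 (76.6%). Klra8 had 2 and 0 counts under ERRγ and none under GFP, and Klra17, which encodes Ly49Q of plasmacytoid dendritic cells, had none in any library. The core of the estrogen-related receptor element, AAGGTCA on either strand, was in 0 of the 13 promoters of 11 Klra genes, against 4.72% of all 32851 promoters of the table. The longer form TCAAGGTCA, which contains the core, was in 0 of the 13, against 0.423% of all. This says only that these letters are not in these windows.

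Klra4, Klra12, Klra18 and Klra15 had 75 to 237 counts in each ERRγ library and 0 to 9 in each GFP library, whereas Klra2 had low counts that overlapped between the viruses. Klra18 was the most counted member in both ERRγ libraries, and Klra4 and Klra12 carried almost the same counts. The summed counts of the 5 rows were 506 and 458 under ERRγ, and 12 and 23 under GFP. The 4 rows were past the threshold of the all-gene test (edgeR quasi-likelihood, adjusted p under 0.05), where 6.84% of 13070 rows passed in either direction, 5.06% higher under ERRγ and 1.78% lower. The rows were proposed from this contrast, so nothing is read from that count.

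**Figure D1:**
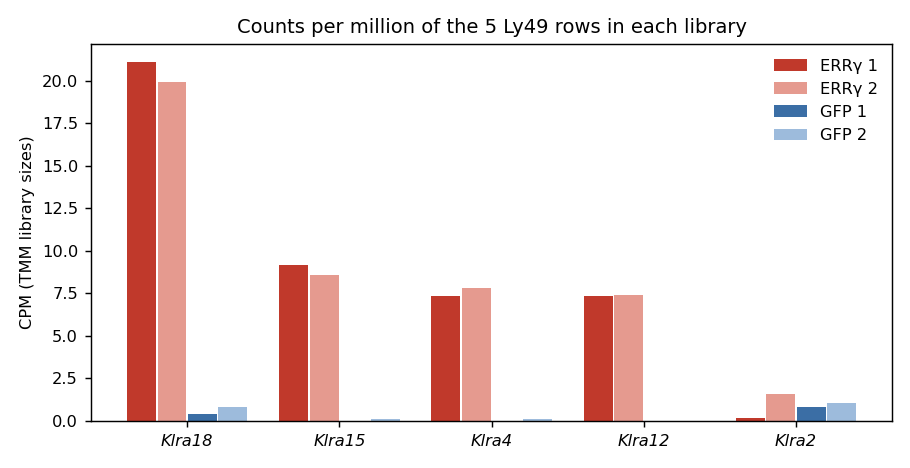
Level in CPM (TMM-scaled library sizes) of the 5 Ly49 rows, with 1 bar per library, ERRγ in reds and GFP in blues. Klra18 reaches 21.1 and 19.9 CPM under ERRγ, against 0.409 and 0.808 CPM under GFP, and Klra2 does not separate the viruses.

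Among the rows named for activating receptors, Klra18 had 237 and 201 counts in ERRγ libraries 1 and 2, and 4 and 9 counts in the GFP libraries. Its level was 20.5 ± 0.911 CPM under ERRγ and 0.609 ± 0.282 CPM under GFP (SD, n = 2 each). The ratio of its pooled counts was 33.0, with an exact 95% counting interval of 19.1 to 62.5. Without GFP library 2 that ratio was 50.2 (19.5 to 185). Klra18 was the only one of these 4 rows with counts in both GFP libraries. Klra4 had 82 and 79 counts under ERRγ, and 0 and 1 under GFP, or 7.56 ± 0.345 CPM under ERRγ and 0.0449 ± 0.0635 CPM under GFP. Its ratio of 158 rests on that 1 GFP count and has an interval of 27.9 to 6270; without GFP library 2 it is a bound of at least 24.6-fold higher against 3 counts in GFP library 1. For Klra4 the groups did not overlap, and the 2 ERRγ libraries lay close together. Klra12 had 82 and 75 counts under ERRγ and none under GFP, at least 25.6-fold higher against a floor of 3 counts in each GFP library. Its level was 7.36 ± 0.0657 CPM under ERRγ, and a count of 0 allows up to 0.307 and 0.269 CPM in the GFP libraries.

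Klra15, named for an inhibitory receptor, had 103 and 87 counts under ERRγ, and 0 and 1 under GFP. Its level was 8.89 ± 0.421 CPM under ERRγ and 0.0449 ± 0.0635 CPM under GFP. The ratio of its pooled counts was 186 (33.0 to 7400). Klra15 was at least 29.0-fold higher without GFP library 2. In the ERRγ libraries its counts stood closest to those of Klra4 and Klra12. Klra2 had 2 and 16 counts under ERRγ, and 8 and 12 under GFP, so that both GFP libraries lay between the ERRγ libraries. Its level was 0.879 ± 0.991 CPM under ERRγ and 0.948 ± 0.183 CPM under GFP, with a ratio of pooled counts of 0.882 (0.440 to 1.76). Its log2 fold change of −0.14 was 0.73 without ERRγ library 1, −2.34 without ERRγ library 2 and 0.08 without GFP library 2, which leaves it without a direction at this depth. Klra2 is thus a member by its name and not by a difference between the viruses.

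In the ERRγ libraries the order of levels was Klra18, Klra15, then Klra4 and Klra12, then Klra2. Reads come from transcript ends, so CPM are not divided by length; the ends of these rows are not all annotated and their levels are set side by side only on that scale. Klra4 and Klra12 did not differ beyond their spread. Klra15 had 1.26 times the counts of Klra4 in ERRγ library 1 and 1.10 times in library 2. Klra18 made up 46.8% of the summed member counts in ERRγ library 1 (exact 95% interval, 42.4 to 51.3) and 43.9% in library 2 (39.3 to 48.6). The share of Klra15 was 20.4% and 19%, that of Klra4 16.2% and 17.2%, and that of Klra12 16.2% and 16.4%. The share of Klra2 was 0.395% in library 1 (0.0479 to 1.42) and 3.49% in library 2 (2.01 to 5.61), intervals that do not overlap, whereas those of the other 4 rows overlap between the pair. These intervals and floors cover counting error only, since PCR copies were not removed by molecular identifiers as far as the sources used here say.

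The summed rows stood at 45.1 and 45.2 CPM in ERRγ libraries 1 and 2, against 1.23 and 2.06 CPM in the GFP libraries. The ratio of the summed counts was 27.0 (19.3 to 39.0), and 61.8 (37.3 to 111) without Klra2, which gave most of the GFP counts. The ratio without Klra2 rests on 15 GFP counts, and leaving out GFP library 2 as well made it 108 (42.2 to 399), an alternative added after seeing the data. Without Klra12 the ratio was 22.6 (16.1 to 32.7). The sum was equal in the ERRγ pair although Esrrg stood at 130 CPM in library 1 and 1280 CPM in library 2. Without Klra2 the sum was 45.0 CPM in ERRγ library 1 and 43.7 CPM in library 2. With 2 libraries, no relation of the sum to Esrrg can be tested. Whether Esrrg counts, taken at transcript ends, fully cover the transcript made from the virus was not tested. In bulk RNA, more cells with such transcripts and more transcripts per cell cannot be told apart.

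Klra4 and Klra12, which follow each other in the tables, differed by at most 4 counts in any library. Among 623 pairs of adjacent rows with a mean of 50 to 200 ERRγ counts each, 34 (5.46%) were as close as 10% in both ERRγ libraries. The pair, the range and the 10% were set with the member counts known, so this share is not a test of the pair. The ratio of Klra18 to Klra15 was 2.30 in ERRγ library 1 and 2.31 in library 2, and that of Klra18 to Klra4 was 2.89 and 2.54. If a read was given to more than 1 of these rows the sum counts it more than once, and the sources used here do not say how the authors treated such reads. In the GENCODE transcripts, the last 300 bases of Klra4 share none of their 251 stretches of 50 bases with another gene, and 39 of 276 stretches of 25 bases (14.1%). Those 25-base stretches lie mainly in Klra13-ps (37) and Klra7 (33), whose rows had no count in any library. Over the whole Klra4 transcript, 56 of 1196 stretches of 50 bases (4.68%) are shared. Of these, 51 lie in Klra1, which encodes the inhibitory receptor Ly49A, and 4 in Gm15854. Gm15854 is a pseudogene between Klra5 and Klra6, without a row of that name. Of the 25-base stretches of the whole transcript, 305 of 1221 (25.0%) are shared, mainly with Klra1 (130), Klra13-ps (115) and Gm15854 (92). Whether reads of Gm15854 were given to a Klra row was not tested. The last 300 bases of both Klra2 transcripts share no 50-base stretch with another gene. Whether Klra12, Klra15 and Klra18 share reads with Klra4 was not tested, since their sequences were not used here, and their single values are uncertain. Their symbols are not genes of the GENCODE annotation, which is that of the strain these cells came from. Which loci gave their reads was not tested. The counts, ratios and shares given for them belong to rows, and whether these rows stand for separate receptor genes was not tested.

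The other 15 Klra rows had next to no counts in either group. They held 5 and 2 counts in all under ERRγ, and 0 and 2 under GFP, with 11 of the 15 at 0 in every library. The 4 with a count were Klra1 (1 and 2 under ERRγ, 0 and 2 under GFP), Klra8, and Klra21 and Klra22 with 1 count each, both in ERRγ library 1. None of the 15 passed the filter on low counts, so none was tested, and changes in them were not detectable at this depth. Apart from Klra2, the counts of the family therefore sat in 4 rows, of which Klra18, Klra4 and Klra12 are consecutive and Klra15 stands 3 rows before Klra18.

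**Figure D2:**
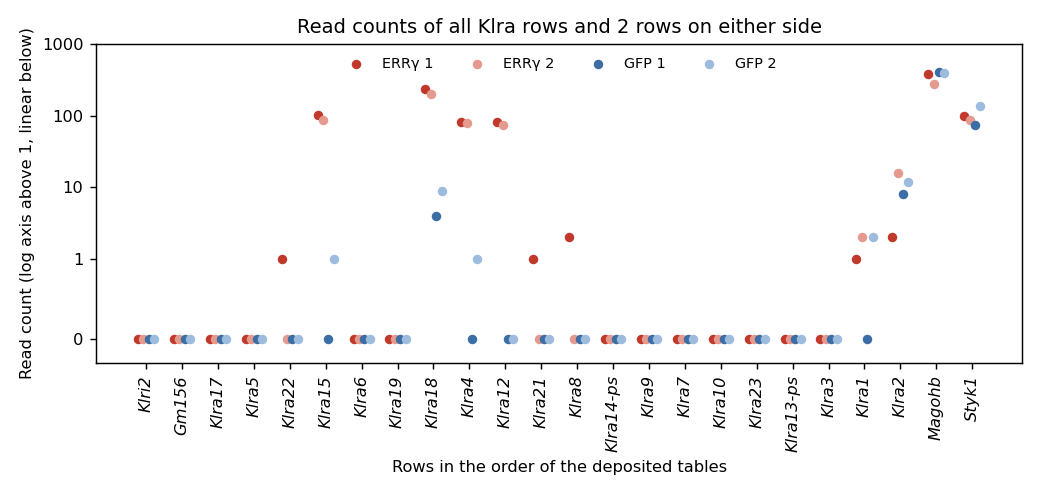
Read counts of the 20 Klra rows and of 2 rows on either side, in the order of the tables, with 1 point per library (log axis above 1, linear below). Klra15, Klra18, Klra4 and Klra12 hold 75 to 237 counts under ERRγ, the other family rows except Klra2 at most 2 in any library.

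Of the 2 nearest coding genes on either side of the family, those beyond Klra2 did not pass the all-gene test and those beyond Klra17 could not be tested. Klri2, an NK receptor gene, and Gm156, on the side of Klra17, had no count in any library. Beyond Klra2, Magohb, which encodes an exon junction protein, had 385 and 280 counts under ERRγ and 402 and 399 under GFP (edgeR log2 fold change −0.31, SE 0.17, adjusted p = 0.329). Styk1, a kinase-like gene, had 99 and 87 counts under ERRγ and 73 and 135 under GFP (−0.17, SE 0.32, adjusted p = 0.796; 0.22 without GFP library 2).

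Of 31 other lectin-like receptor genes listed for the NK gene complex, 30 had a row, 12 of them without a count in any library. Only 4 could be tested, and Klrg2 was the 1 that passed, where 6.84% of all rows tested passed. Klrg2 had 332 and 323 counts under ERRγ and 181 and 208 under GFP (1.65-fold, log2 fold change 0.73, SE 0.17, edgeR adjusted p = 0.0460). Klrg2 lies at chr6:38625693-38637242, far from the complex. Its call ended with library totals (adjusted p = 0.0627), DESeq2 (0.0571) and limma-voom (0.0523), and without GFP library 1 (0.291), GFP library 2 (0.238) or ERRγ library 2 (0.0510). The others tested, Clec2e, Clec7a and Olr1, did not pass, with log2 fold changes of −1.45, −1.53 and −0.59. The median log2 fold change of the 4 tested genes was −1.02, against −0.007 over all rows tested. The NK receptor genes of the complex were near zero: Klrd1 had 1 and 1 counts under ERRγ and 0 and 1 under GFP, Klrk1 had 0 and 1 under ERRγ and none under GFP, and Klrb1c, which encodes the NK1.1 antigen, had 1 and 0 under ERRγ and none under GFP. Klre1, singled out after its values were seen, had 0 and 16 counts under ERRγ and none under GFP, all in 1 library.

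Most of the 14 NK markers listed, but not Itga2 and Eomes, were at or near 0 in the libraries that held the Ly49 counts. Ncr1, which encodes NKp46, had no count in any library, nor had Gzmb or Xcl1. Ptprc, which encodes the pan-leukocyte antigen CD45, had none under ERRγ, and 1 and 0 counts under GFP. Prf1 and Gzma, for the perforin and granzyme of cytotoxic granules, had 1 count each in all, both under ERRγ, and Nkg7 had 1, under GFP. Il2rb had 2 and 4 counts under ERRγ and none under GFP, and Ccl5 had 5 and 7 under ERRγ and 4 and 60 under GFP. The 14 NK markers summed to 48.9 and 58.0 CPM under ERRγ, and to 62.3 and 73.6 CPM under GFP. Most of that was Itga2, an integrin gene also of epithelial cells, with 460 and 521 counts under ERRγ and 586 and 755 under GFP (log2 fold change −0.47, SE 0.16, edgeR adjusted p = 0.134). The transcription factor gene Eomes, singled out after its values were seen, had 78 and 51 counts under ERRγ and 18 and 4 under GFP (2.46 on the log2 scale, edgeR adjusted p = 0.0700), and passed with DESeq2. The part of these markers in the Ly49 counts was not tested. Of the 14, 3 were at 0 in every library and 2 were tested. Neither passed with edgeR, both had an unadjusted p under 0.05, and DESeq2 called 1 and limma-voom 0.

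The 11 T cell markers summed to 5.35 and 9.29 CPM under ERRγ, and to 7.78 and 6.55 CPM under GFP, with no count for Cd3e, Cd3g, Cd2 or Cd5. Of the T cell co-receptor genes, Cd4 had 0 and 5 counts under ERRγ, Cd8a 0 and 6, and Cd8b1 3 and 0, and the 3 had none under GFP; they were too low to test, and their part in the Ly49 counts was not tested. None of the 3 tested passed with edgeR, DESeq2 or limma-voom, and 0 had an unadjusted p under 0.05. The highest was Thy1 (−0.19, SE 0.42, edgeR adjusted p = 0.841). Cd247 had 12 and 11 counts under ERRγ and 8 and 11 under GFP, and Lck had 9 and 16 under ERRγ and 13 and 12 under GFP. The 7 leukocyte markers summed to 16.1 and 11.8 CPM under ERRγ, and to 18.7 and 19.8 CPM under GFP. Most of that was Lcp1, an actin-bundling gene (−0.26, SE 0.34, edgeR adjusted p = 0.706). Vav1 had 45 and 42 counts under ERRγ and 64 and 78 under GFP (−0.73, SE 0.34, edgeR adjusted p = 0.248). Again none of the 2 tested passed with any of these tools, with 0 at an unadjusted p under 0.05. The macrophage list, which bears on Klra2 because Ly49B is known from myeloid cells, summed to 49.0 and 72.3 CPM under ERRγ, and to 95.1 and 91.4 CPM under GFP. In it Cd14, the lipopolysaccharide co-receptor gene, fell to 50.3 ± 11.4 CPM under ERRγ, against 83.7 ± 3.61 CPM under GFP. Its edgeR log2 fold change was −0.74 (adjusted p = 0.0488). Cd14 was the 1 of 3 tested that passed, where 6.84% of all rows tested passed. That call ended without GFP library 1 (adjusted p = 0.312) or GFP library 2 (0.213), and with DESeq2 size factors (0.0504). Adgre1, the F4/80 gene of macrophages, had no count under ERRγ, and 8 and 20 counts under GFP. Csf1r, the gene of a macrophage growth factor receptor, had 42 and 72 counts under ERRγ and 24 and 37 under GFP (log2 fold change 0.90, edgeR adjusted p = 0.292), and Cd68 had 27 and 67 under ERRγ and 51 and 47 under GFP (−0.07, adjusted p = 0.957). Itgam had 1 and 2 counts under ERRγ, and 1 and 0 under GFP.

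**Figure D3:**
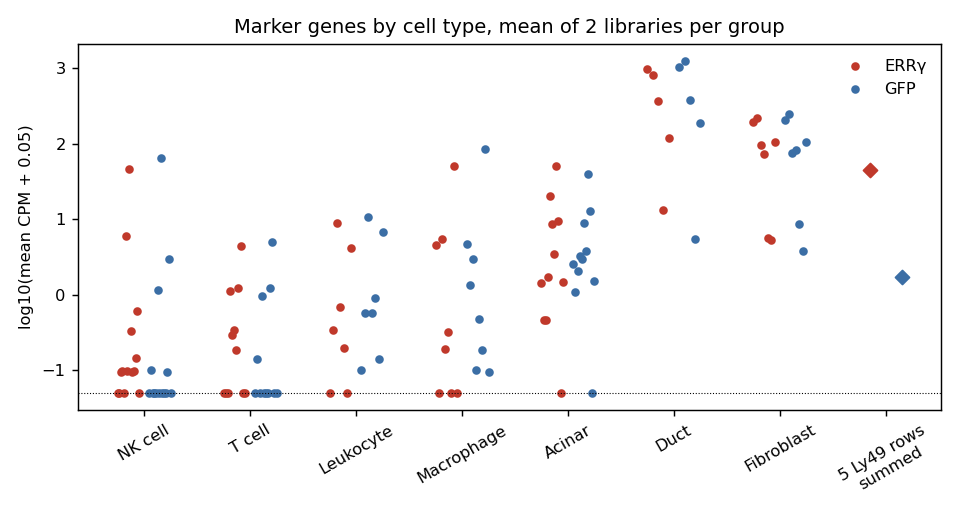
Mean CPM of each marker gene over the 2 libraries of a group, on a log10 scale after adding 0.05, by cell type, with the summed Ly49 rows as diamonds (ERRγ red, GFP blue). The dotted line marks genes at 0; most NK and T cell markers lie on or near it in both groups, while the Ly49 sum stands at 45.2 CPM under ERRγ and 1.65 CPM under GFP.

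Of the genes through which Ly49 receptors signal, none of 9 tested passed with edgeR, 1 had an unadjusted p under 0.05, and DESeq2 and limma-voom called 0. Tyrobp, the gene of the adaptor DAP12 that Ly49D needs at the cell surface, had 13 and 2 counts under ERRγ and 14 and 12 under GFP (log2 fold change −0.85, edgeR adjusted p = 0.6). Hcst, the gene of the related adaptor DAP10, had 3 and 2 counts under ERRγ and 2 and 0 under GFP. Ptpn6, which encodes SHP-1, had 67 and 62 counts under ERRγ and 68 and 100 under GFP (−0.40, edgeR adjusted p = 0.498). The highest of the list was Ptpn11, for the phosphatase SHP-2, at 152 ± 2.12 CPM under ERRγ and 131 ± 11.7 CPM under GFP (0.21, SE 0.13, edgeR adjusted p = 0.395). The median log2 fold change of the list was −0.18, against −0.007 over all rows tested.

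Of 14 genes of MHC class I ligands and their assembly, 10 could be tested, and H2-L, H2-Q4, H2-Q6 and H2-Q7 had 0 to 8 counts in each library. B2m, the class I light chain, stood at 805 ± 153 CPM under ERRγ and 635 ± 115 CPM under GFP (log2 fold change 0.34, SE 0.19, edgeR adjusted p = 0.321), and the heavy chain genes H2-K1 (0.12, adjusted p = 0.692) and H2-D1 (0.13, adjusted p = 0.659) did not pass. Near-identical class I genes can share reads. None of the 10 tested passed with edgeR, DESeq2 or limma-voom, 2 had an unadjusted p under 0.05, and the median was 0.12.

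Of 11 tested transcription factor genes known in NK cells, 2 passed with edgeR, in opposite directions, where 6.84% of all rows tested passed. An unadjusted p under 0.05 was found for 5 (Id2, Nfil3, Runx1, Ets1 and Eomes), DESeq2 called 3 (Id2, Runx1 and Eomes) and limma-voom called 2. Id2, an inhibitor of E proteins that NK cells need, rose 3.57-fold to 151 ± 37.6 CPM under ERRγ, against 42.2 ± 6.24 CPM under GFP (log2 fold change 1.84, SE 0.20, edgeR adjusted p = 0.00283). Runx1, a factor of blood cell development, fell 1.95-fold to 46.7 ± 5.19 CPM under ERRγ, against 91.1 ± 2.55 CPM under GFP (−0.96, SE 0.14, edgeR adjusted p = 0.00896). The call for Id2 ended without GFP library 1 (adjusted p = 0.0683), and that for Runx1 without GFP library 1 (0.119) or GFP library 2 (0.0839). Tcf7, whose product TCF-1 acts on the Ly49A gene, had 11 and 57 counts under ERRγ and 18 and 17 under GFP (0.96, edgeR adjusted p = 0.509), and Tbx21 had 0 and 1 under ERRγ and none under GFP. The median of the list was 0.01.

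With 75 set as the minimum after the counts were seen, 7 of 23282 rows had at least that many counts in both ERRγ libraries and at most 1 in the GFP libraries together. These were Klra4, Klra12 and Klra15, with Pgm5 (433 and 335 counts under ERRγ), Nr0b2 (263 and 213), Lcn4 (125 and 102) and Afap1l2 (78 and 110). The minimum is the count of Klra12 in ERRγ library 2, and the GFP limit is the total of Klra4 and of Klra15. The place of these members among the 7 was thus fixed by the limits, and nothing is read from it. Klra18, with 4 and 9 GFP counts, was not among them.

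**Figure D4:**
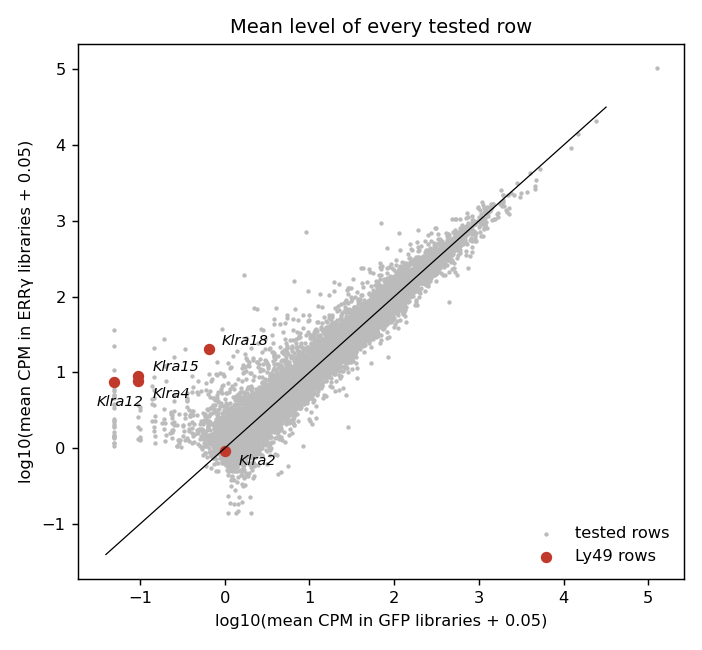
Mean CPM in the ERRγ libraries against mean CPM in the GFP libraries for the 13070 tested rows, both on a log10 scale after adding 0.05, with the 5 Ly49 rows in red and the line of equal levels. Klra4, Klra12, Klra15 and Klra18 lie far above the line and Klra2 lies on it.

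Among the 5 genes whose levels were most like those of the summed rows were Mme, Lce1f, Klhdc8a and Dgkk, by Euclidean distance of log2(CPM + 0.5) over the 4 libraries among 13898 rows. Their distances were 0.920, 1.04, 1.24 and 1.27 in that order. Mme, which encodes the peptidase neprilysin, had 36.9 ± 1.99 CPM under ERRγ and 2.65 ± 0.566 CPM under GFP, and Lce1f, a late cornified envelope gene, had 67.8 ± 3.6 CPM under ERRγ and 2.37 ± 0.457 CPM under GFP. Klhdc8a had 28.3 ± 6.98 CPM under ERRγ and 1.74 ± 0.431 CPM under GFP, and Dgkk, a diacylglycerol kinase gene, had 70.8 ± 17.8 CPM under ERRγ and 2.18 ± 0.539 CPM under GFP. These 4 genes had more counts in ERRγ library 1 than in library 2, whereas Esrrg had fewer. They were picked for this likeness, so their differences between the viruses carry no test here.

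**Figure D5:**
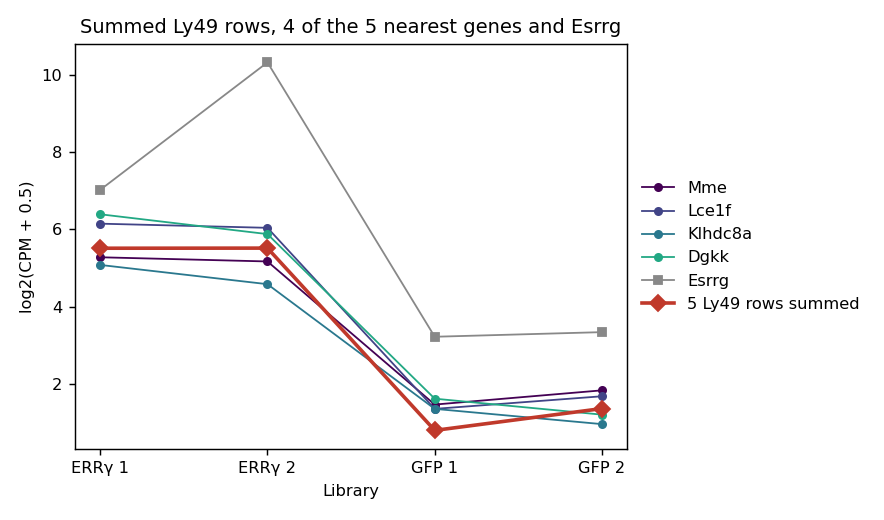
Levels as log2(CPM + 0.5) in each of the 4 libraries for the summed Ly49 rows (red diamonds), 4 of the 5 nearest genes and Esrrg (grey squares); lines only join the libraries of a gene. The Ly49 sum is flat between ERRγ libraries 1 and 2 (45.1 and 45.2 CPM), where Esrrg stands at 130 and 1280 CPM.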

How the data were processed

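Transcript-end libraries (Lexogen QuantSeq, 500 ng of total RNA, per the labels' protocols) were counted by the authors; the deposited tables hold raw read counts per gene symbol, 1 table per library. Per the submitters' processing notes, Bowtie2, edgeR and build mm10 were used (no versions stated). What counted the reads, on which annotation and strand, and what became of reads with several matches is not stated there or in the labels; these steps could split or repeat reads among near-identical Klra copies.

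The test was edgeR 4.0.16 under R 4.3.3 (filterByExpr, minimum count 10, TMM, glmQLFit and glmQLFTest on the group, two-sided, Benjamini-Hochberg over 13070 of 17888 rows with a count, threshold 0.05). The SE is the log2 fold change divided by the square root of F. Ratios with an exact conditional 95% interval are of pooled counts over pooled TMM-scaled library sizes, and so differ from ratios of mean CPM. A floor is 3 counts per library (0.268 to 0.307 CPM). DESeq2 1.42.0 and limma 3.58.1 (voom) served as alternatives. The fit was tested on simulated counts.

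The members, lists and rules were chosen with earlier results of these data known. Named were the members, Klra rows with a count, Esrrg, listed genes past the threshold, otherwise the highest tested gene of a list, 2 neighbours on each side and the 5 nearest genes, of which 1 is not reported here; genes named outside the rule are otherwise marker or pathway genes of the lists, chosen after their values were seen. Of the endothelial, islet and fibroblast lists, none of 3, 5 and 7 tested genes passed with edgeR, DESeq2 or limma-voom (0, 2 and 1 at an unadjusted p under 0.05; highest genes Cdh5, Ins2 and Col1a2). In the acinar list Prss2 rose (20.4 ± 9.02 CPM under ERRγ, 2.97 ± 1.15 CPM under GFP), and in the duct list Cftr rose and Krt7 and Muc1 fell. Without GFP library 1 or GFP library 2 these 4 calls ended (adjusted p 0.072 to 0.312), and that of Cftr also with library totals (0.0569).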

Additional observations from a re-analysis of the deposited data

How the results depend on the processing

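The summed Ly49 rows had a log2 ratio of mean CPM of 4.78. It was 4.45 to 5.20 when a library was left out and 4.78 and 4.80 with DESeq2 size factors and library totals. The log2 fold change of Klra18, 5.03, was 4.64 to 5.60 when a library was left out, and those of Klra4, Klra12 and Klra15, fitted against 0 or 1 GFP counts, depend on the prior count. Over all genes, 661 were higher and 233 lower under ERRγ; leaving out a library gave 92 to 1597 higher and 7 to 1098 lower, fewest without GFP library 1, and no filter gave 1271 and 738. Other Klra rows called numbered 0 in all 10 alternatives. Nothing is read from that number, since these rows held at most 2 counts in any library. Other lectin genes called numbered 1, and 0 with library totals, DESeq2 or limma-voom, and 0 to 2 when a library was left out. With a library left out, the log2 fold change turned its sign for Klra2 (−2.34 to 0.73), Cdh5 (−1.35 to 0.97), Col1a2 (−0.55 to 0.28), Lcp1 (−0.75 to 0.10), Styk1 (−0.48 to 0.22) and Thy1 (−0.63 to 0.16), none of which passed the test; Klra2 turned without ERRγ library 1 (0.73) or GFP library 2 (0.08), and Thy1 also without GFP library 1 (0.01). A fit that leaves out a library assumes that the lone library varies like the other group. For the replicate block, the labels give only shared numbers and the deviations of same-numbered libraries correlated at 0.0093. With the block 776 genes were higher and 315 lower. The causes of these shifts were not tested. Depth limits the 15 other Klra rows, Klra2 and the NK markers other than Itga2 and Eomes. Changes below a few counts were not detectable in these low rows.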
